A study of Drosophila melanogaster with 7 samples.

Results

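Z4-only regions are places on the Drosophila melanogaster genome where Z4 was called in chromatin immunoprecipitation and none of 4 other chromatin proteins was. They were chosen by the called regions themselves: the region lists of Z4, ROW, WOC, Dsk2 and HP1c were pooled, regions sharing at least 1 bp were chained into merged regions, and merged regions built from Z4 alone were kept. Of 13044 merged regions, 942 (7.22%) were of this kind. Each consisted of a single Z4 region, so they made up 12.6% of the 7491 Z4 regions. The other 6549 Z4 regions touched at least 1 other list and are called shared here.

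The study profiled the S2 line, which was established from Drosophila embryos, by chromatin immunoprecipitation and sequencing. Each of the 5 proteins was represented by 1 library, with a guinea pig antibody for Z4 and rabbit antibodies for the others. Per the labels, 1 input library (chromatin taken without immunoprecipitation) served Z4, ROW and WOC, and another served Dsk2 and HP1c. The labels name no genetic change or treatment. The lists held 8999 regions for ROW, 5849 for WOC, 4748 for Dsk2 and 2711 for HP1c, with no score or read number, so the depth is unknown. With 1 library per protein and members defined by the lists, no p-value is given. Intervals are exact (Clopper-Pearson) 95% confidence intervals that cover the counting of regions only and treat regions as independent, although neighbouring regions share a library and a locus.

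Z4, also known as putzig, is a zinc-finger protein that marks the interbands of polytene chromosomes, the decondensed stretches between the dark bands. It works together with Chromator and the JIL-1 kinase in keeping that structure, and it is also found with the transcription factor DREF. ROW and WOC are zinc-finger partners of HP1c, the euchromatic member of the heterochromatin protein 1 family, and Dsk2 is the fly ubiquilin, which binds ubiquitin chains. A called region records where the signal of a library passed a threshold, so absence from a list does not show absence of the protein.

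Z4-only regions were of moderate width. Their median was 205 bp, with quartiles of 87.25 and 291 bp, and the widest measured 855 bp. Shared Z4 regions had a median of 391 bp, with quartiles of 172 and 622 bp, and reached 7721 bp. Together the Z4-only regions covered 0.194 Mb, which was 5.99% of the length of the Z4 list. Overlap and width are linked by construction, because a wide region meets another region more easily, so these widths are a description.

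The widths of Z4-only regions had 2 maxima. Regions under 50 bp numbered 172 (18.3%), among them 14 of a single base. The other maximum lay between 201 and 250 bp, with 147 regions (15.6%). Widths from 100 to 299 bp accounted for 49.7% of Z4-only and 17.6% of shared regions, whereas widths of 500 bp or more accounted for 3.82% and 36.7%. The narrow maximum was also present among shared regions, of which 15.3% were under 50 bp.

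**Figure D1:**
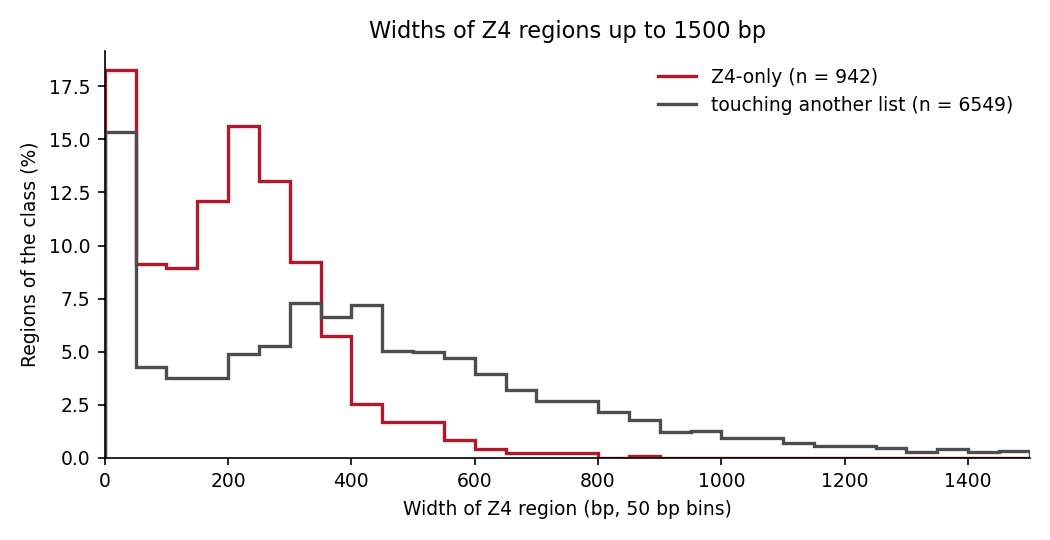
Percentage of Z4-only regions (red) and of shared Z4 regions (grey) in each 50 bp bin of width, up to 1500 bp. The Z4-only regions show a maximum under 50 bp and another between 201 and 250 bp, and few reach 500 bp.

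The share of Z4 regions without another list did not fall steadily with width. It was 14.7% for regions of 1 to 49 bp (172 of 1172, 12.7 to 16.8%) and rose to 23.2% for 50 to 99 bp. The highest shares were 28.8% for 100 to 199 bp (25.5 to 32.4%) and 28.95% for 200 to 299 bp (26.1 to 32.0%). It then dropped to 9.56% for 300 to 499 bp and to 1.88% for 500 to 999 bp. None of the 526 Z4 regions of 1000 bp or more stood alone (upper limit 0.699%). The narrowest Z4 calls therefore touched another list more often than calls of 100 to 299 bp did.

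The 5 widest Z4-only regions were spread over 4 arms. The widest, of 855 bp, lay on 2L from 22179000 to 22179854, near the centromere-proximal end of the arm, with a ROW region 24 bp away. The second, of 789 bp, lay on 2L from 13549319 to 13550107 and had ROW at 232 bp, HP1c at 323 bp, WOC at 439 bp and Dsk2 at 548 bp. The third measured 775 bp, on X from 8301232 to 8302006, with HP1c as its nearest other list at 2549 bp. The fourth (727 bp, 3R from 10973238 to 10973964) was 967 bp from ROW, and the fifth (708 bp, 3L from 16704621 to 16705328) was 82 bp from ROW. Across all 942 regions the Spearman correlation of width with the gap to the nearest other list was 0.101, as a description.

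Gaps are given as the number of bases between the facing ends of 2 regions. The nearest other list lay a median of 986.5 bp away from a Z4-only region, with quartiles of 134 and 3228.5 bp. ROW was the nearest of the 4 lists for 683 members (72.5%), WOC for 124, Dsk2 for 86 and HP1c for 49. The median gap was 1531 bp to ROW, 4040 bp to WOC, 5225 bp to Dsk2 and 12711 bp to HP1c. This order also follows the lengths of the lists, from ROW with the most regions to HP1c with the fewest.

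For comparison, the 913 members on the 5 large arms (2L, 2R, 3L, 3R and X) were shifted along their arms by 999 evenly spaced circular steps. Placements that touched any of the 4 lists, 6.68% of all, were left out, because a Z4-only region cannot touch them. The shifted copies give a reference level and no test. Their median gap was 9861 bp to the nearest other list, against 920 bp for the members in place. For ROW the medians were 14377 bp shifted and 1424 bp in place. For WOC they were 14747 and 3988 bp, for Dsk2 17620 and 5200 bp, and for HP1c 28518 and 12434 bp. Z4-only regions thus lay closer to all 4 lists than their shifted copies did.

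Relative to shifted copies that touched no list, the excess of ROW was greatest at short range. The difference in percentage points grew up to a gap of 5000 bp and was smaller at 10000 and 20000 bp. Within 50 bp, 11.7% of members had a ROW region, against 0.617% of shifted copies, a ratio of 19.0. Within 200 bp the shares were 27.5% and 2.21%, and within 5000 bp they were 78.8% and 28.7%, a ratio of 2.74. For WOC the ratio was 1.87 within 50 bp, 3.27 within 200 bp and 2.23 within 5000 bp. For Dsk2 it was 3.18 within 200 bp and 2.26 within 5000 bp. With all placements kept, those that touched a list included, 5.80% of shifted copies had ROW within 50 bp, 7.67% within 200 bp and 33.2% within 5000 bp, so that the ratios were 2.02, 3.58 and 2.38. On that basis the ratio within 200 bp was 0.859 for WOC, 0.710 for Dsk2 and 1.43 for HP1c. Copies that touch a list count as close here, while members cannot touch one, which lowers all ratios of this kind. They therefore cannot show whether WOC and Dsk2 were scarce beside members. HP1c regions were rare beside Z4-only regions, but the ratio to copies that touched no list was 6.94 within 200 bp (2.41% of members against 0.347%). Shifted copies also fall in parts of the arms that hold few regions of any list, and the part of the common crowding of these proteins in the ratios was not tested.

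**Figure D2:**
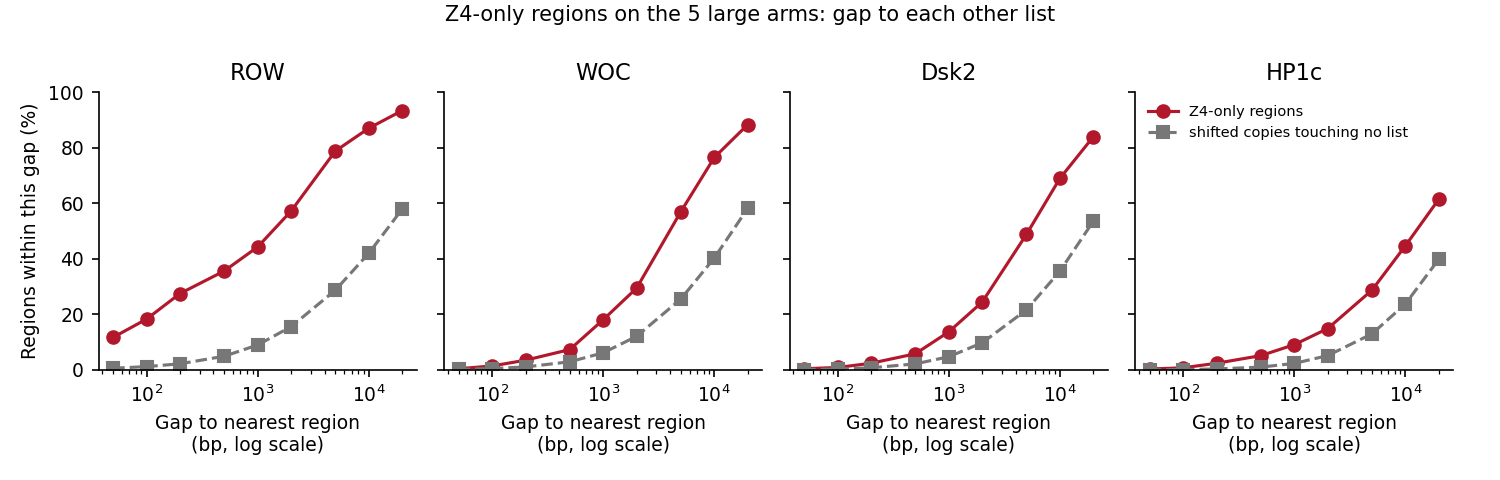
Percentage of the 913 Z4-only regions on the 5 large arms (red circles) with a region of each other list within a given gap, and of their shifted copies that touch no list (grey squares), with the gap on a log axis. ROW is the list with a visible excess at gaps of 50 to 200 bp, whereas the WOC, Dsk2 and HP1c curves separate mainly beyond 500 bp.

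The members fell into broad classes of neighbourhood. Another list was within 200 bp of 289 members (30.7%), and in 251 of these the nearest was ROW. A further 183 members (19.4%) were 201 to 1000 bp away, 327 (34.7%) were 1001 to 5000 bp away, and 143 (15.2%) were more than 5000 bp away. ROW was the nearest list for 86.9% of the first class, 69.9% of the second, 70.6% of the third and 51.05% of the last. Median widths were 179, 194, 218 and 205 bp in this order.

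Many of the ROW regions beside close members were narrow. ROW lay within 200 bp of 255 members, and the median width of the nearest ROW region was 57 bp, with quartiles of 17.5 and 238 bp, against 98 bp for ROW-only regions (quartiles 19 and 278 bp) and 245 bp for all 8999 ROW regions. In 246 of these cases ROW was within 200 bp on 1 side, and in 9 on both. Among the 472 members with another list within 1 kb, the nearest merged region consisted of ROW alone in 291 cases (61.7%) and of ROW with Z4 in 48 (10.2%). It held more than 1 list in 138 cases (29.2%). Merged regions with all 5 proteins were the nearest neighbour of 14 members. Narrow members had ROW at close range somewhat more often: 36.6% of those under 50 bp had it within 200 bp (29.4 to 44.3%), against 24.7% of those of 200 to 299 bp (19.7 to 30.3%), and these intervals overlapped.

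At the limit of the definition, 3 members abutted a ROW region with no base between them. They lay on 2L from 8437253 to 8437540, on 3R from 18917441 to 18917621 and on 3R from 22360768 to 22360781. Of all members, 32 had a gap under 10 bp and 117 a gap under 50 bp. Just outside, Z4 regions on 2L from 4382606 to 4382853 and from 4442228 to 4442538 shared 1 base with ROW, and one on 2L from 6498366 to 6498640 shared 1 base with WOC. In all, 439 shared Z4 regions had at most 10 bp in common with the other lists. That count includes every shared Z4 region of at most 10 bp, even one lying wholly inside another region. The 5th percentile of shared widths was 8 bp, so the count is not comparable with the 32 members.

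At the other extreme, 86 members (9.13%) had no other list within 10 kb, and 72 of these were on the large arms. No region of any list, Z4 included, lay within 5 kb of 124 members (13.2%, 11.1 to 15.5%), whose median width was 207.5 bp. The 5 members farthest from any other list were all on assemblies of heterochromatic or unplaced sequence, 4 on Uextra and 1 on 2RHet, with gaps of 396132 to 675300 bp and widths of 14 to 199 bp. On the large arms, chosen after the values were seen, the most distant were a pair on 3R, from 3469369 to 3469540 (172 bp) and from 3470119 to 3470298 (180 bp). They lay 578 bp from each other, and the nearest other list was a ROW region 94768 and 95518 bp away. The next, on 3R from 16290039 to 16290115, was 79732 bp from ROW and 80445 bp from another Z4 region.

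Z4-only regions stood farther from the rest of the Z4 list than shared regions did. The nearest other Z4 region was a median of 2603.5 bp from a Z4-only region and 1368 bp from a shared one. It was within 1 kb for 22.2% of Z4-only regions (19.6 to 24.98%) and for 43.6% of shared regions (42.4 to 44.8%). Neighbouring regions of 1 list were never closer than 300 bp, and the smallest gap from a Z4-only region to another Z4 region was 304 bp.

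Z4-only regions were nevertheless followed by another Z4-only region more often than shared regions were. The next Z4 region after a Z4-only region was Z4-only in 182 of 941 cases (19.3%, 16.9 to 22.0%), against 758 of 6536 (11.6%, 10.8 to 12.4%) after a shared region. These cases were pooled over large arms with Z4-only shares from 9.20% to 19.25%, and the part of that spread was not tested. For members, the nearest Z4 region was Z4-only in 18.6% of cases within 5 kb and in 21.2% beyond. For shared regions these values were 9.50% and 13.4%. Within 500 bp they were 27.0% for 74 members (17.4 to 38.6%) and 2.97% for 1580 shared regions (2.19 to 3.94%). Where members were chained across gaps of up to 5 kb, 187 (19.9%, 17.3 to 22.5%) lay in runs of at least 2. There were 74 runs of 2, 9 runs of 3 and 3 runs of 4. The share in runs was 27.1% on X (21.6 to 33.3%) and 26.0% on 3L, against 19.6% on 2L, 12% on 2R and 11.1% on 3R (6.72 to 17.0%). X also held the most members per Mb (10.5), against 8.02 on 2L, 7.39 on 3L, 7.10 on 2R and 5.81 on 3R. The part of density in these shares was not tested.

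The 3 longest runs differed in what lay among them. On 3L from 12109000 to 12118420, 4 Z4-only regions of 293, 8, 72 and 256 bp spanned 9421 bp without a region of any other list, and the nearest other list was a Dsk2 region 6811 bp from the last of them. On X from 6240923 to 6246307, 4 regions of 379, 2, 285 and 400 bp spanned 5385 bp, again without another list among them, and ROW lay 131 bp beyond the last. On 3L from 15493873 to 15502782, 4 regions of 194, 14, 160 and 232 bp were interspersed with 3 ROW regions, 2 HP1c regions and 1 region each of WOC, Dsk2 and shared Z4. The densest windows of 100 kb held 8 Z4-only regions each. One, on 3L from 8500276 to 8600275, had 15 Z4 and 18 ROW regions, and the other, on X from 6170744 to 6270743, had 17 Z4 and 12 ROW regions.

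Among the large arms, the share of Z4 regions without another list was highest on X. It was 19.25% there (236 of 1226, 17.1 to 21.6%), against 13.7% on 2L (184 of 1344, 11.9 to 15.6%), 12.4% on 3L (181 of 1457, 10.8 to 14.2%), 9.84% on 2R (150 of 1525, 8.39 to 11.4%) and 9.20% on 3R (162 of 1761, 7.89 to 10.6%). The interval for X overlapped none of the others, and those of 2R and 3R did not overlap that of 2L. Over the 4 large autosomal arms together the share was 11.1% (10.3 to 11.9%). X held 25.1% of all members, at 10.5 per Mb, although it had the lowest density of Z4 regions of the large arms, at 54.7 per Mb. The autosomal arms had 7.02 members and 63.1 Z4 regions per Mb.

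**Figure D3:**
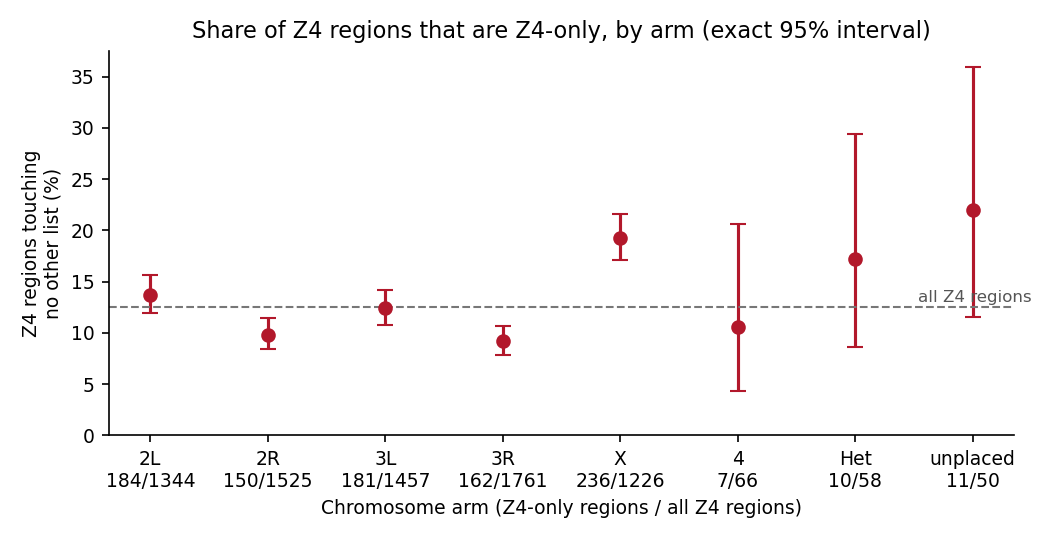
Percentage of Z4 regions that are Z4-only on each large arm, on chromosome 4, and on the heterochromatic (Het) and unplaced (U and Uextra) assemblies, with exact 95% intervals, and the dashed line at 12.6% for the whole list. X stands at 19.25%, above the other large arms, and the small classes on the right have wide intervals.

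The share on X differed along the chromosome. Z4 regions that began before 13 Mb included 174 Z4-only regions of 701 (24.8%, 21.7 to 28.2%), and those from 13 Mb on included 62 of 525 (11.8%, 9.18 to 14.9%), a share whose interval overlapped that of the autosomal arms. The stretch from 4 to 13 Mb held 131 Z4-only regions of 455 (28.8%, 24.7 to 33.2%). These limits were chosen after the values along the arm were seen. In windows of 1 Mb with at least 10 Z4 regions, the median share was 15.2% over 22 windows on X and 10.4% over 96 windows on the autosomal arms. The share was above that of the whole list in 16 of 22 windows on X and in 33 of 96 on the autosomes. X windows ranged from 5.48 to 48.6%, and autosomal windows from 0 to 32.6%, so individual windows overlapped widely. The highest on X was the window that begins at 4000000, with 17 Z4-only regions of 35. The part of X before 13 Mb was uneven, with 13.3%, 10.3% and 10.8% in the windows that begin at 2000000, 3000000 and 5000000. High windows also occurred on the autosomal arms, as on 2L from 4000000 (32.6%) and 6000000 (29.5%). On 3L the windows from 8000000 and 12000000 held 30.7% and 31.25%.

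Over X as a whole, Z4 regions touched ROW less often than on the autosomal arms, and WOC about as often. ROW touched 58.7% of all Z4 regions on X (55.9 to 61.5%), against 74.6% on 2L, 76.7% on 3L, 79.9% on 3R and 81.6% on 2R. WOC touched 46.6% on X (43.75 to 49.4%) and 46.6% on the 4 large autosomal arms (45.4 to 47.9%). Dsk2 touched 37.4% on X (34.7 to 40.2%) and 40.6% on the autosomes (39.4 to 41.9%), and HP1c 15.3% and 17.1%. Before ROW was considered, the share of Z4 regions with none of WOC, Dsk2 and HP1c was 50.2% on X (47.4 to 53.1%) and 49.4% on the autosomes (48.1 to 50.6%). Among these, ROW was missing from 38.3% on X (34.5 to 42.3%) and from 22.5% on the autosomes (21.0 to 24.1%).

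The share touching ROW also differed along X, with 50.5% before 13 Mb (46.7 to 54.3%) and 69.7% from 13 Mb on (65.6 to 73.6%). The latter was below the 74.6% of 2L (72.1 to 76.9%), but these intervals overlapped. WOC touched 41.8% (38.1 to 45.5%) and 52.95% (48.6 to 57.3%) of Z4 regions in the same parts. Z4 regions had a median width of 238 bp before 13 Mb and 343 bp from there on, and the ROW list had 58.8 and 69.0 regions per Mb. The part of these values in the result was not tested.

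The lower share of ROW on X was not limited to places where the other proteins were missing too. Among Z4 regions that touched WOC, Dsk2 or HP1c, ROW was missing from 44.3% on X (40.3 to 48.3%) and from 20.8% on the autosomes (19.4 to 22.2%). The ROW list had 63.1 regions per Mb on X and 77.1 on the autosomes, and its median width was 187 bp on X and 259 bp on the autosomes. The WOC list had 49.96 regions per Mb on X and 47.6 on the autosomes, with median widths of 169 and 213 bp. The part of these densities and widths in the result was not tested. The libraries of ROW, WOC and Z4 were all called against the same input.

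**Figure D4:**
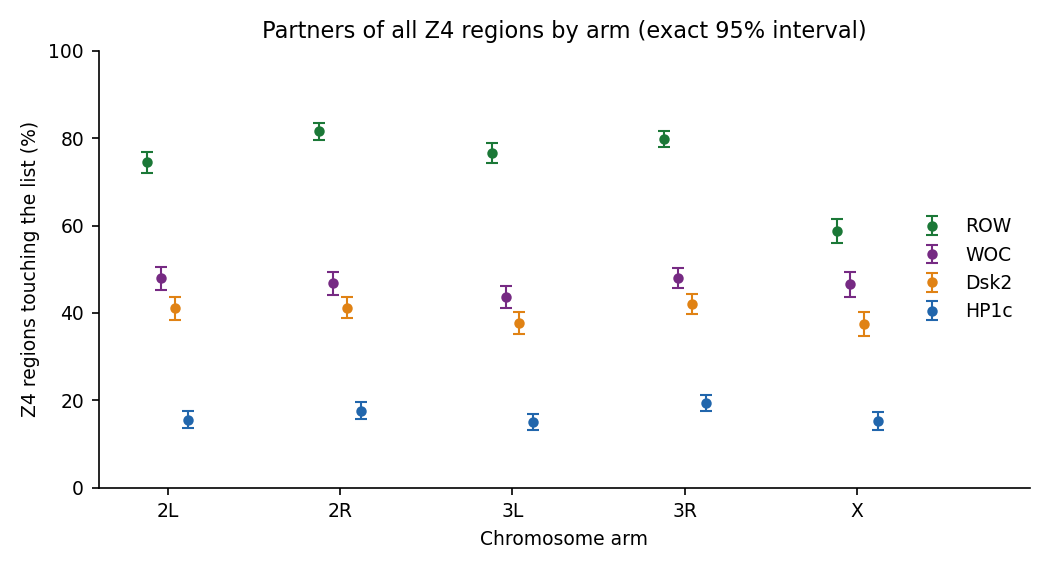
Percentage of all Z4 regions on each large arm that touch a region of ROW, WOC, Dsk2 or HP1c, with exact 95% intervals. ROW falls from 74.6% or more on the autosomal arms to 58.7% on X, while WOC lies between 43.7% and 48.0% on all 5 arms.

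Z4 regions were narrower on X, with a median of 275.5 bp against 369 bp on the autosomal arms. Within width classes the share without another list was still higher on X in each class below 1000 bp. The intervals were separate for regions of 300 to 499 bp, with 15.9% on X (11.8 to 20.7%) and 8.67% on the autosomes (7.33 to 10.2%). They overlapped for 100 to 199 bp (35.8% and 26.55%), for 200 to 299 bp (32.7% and 29.1%), for 500 to 999 bp (4.37% and 1.57%) and for the 2 classes under 100 bp. When all regions were given a fixed 200 bp about their midpoints, the arms came closer, with 35.6% on X and 31.1% on the autosomes, while the number of Z4-only regions rose to 2368.

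**Figure D5:**
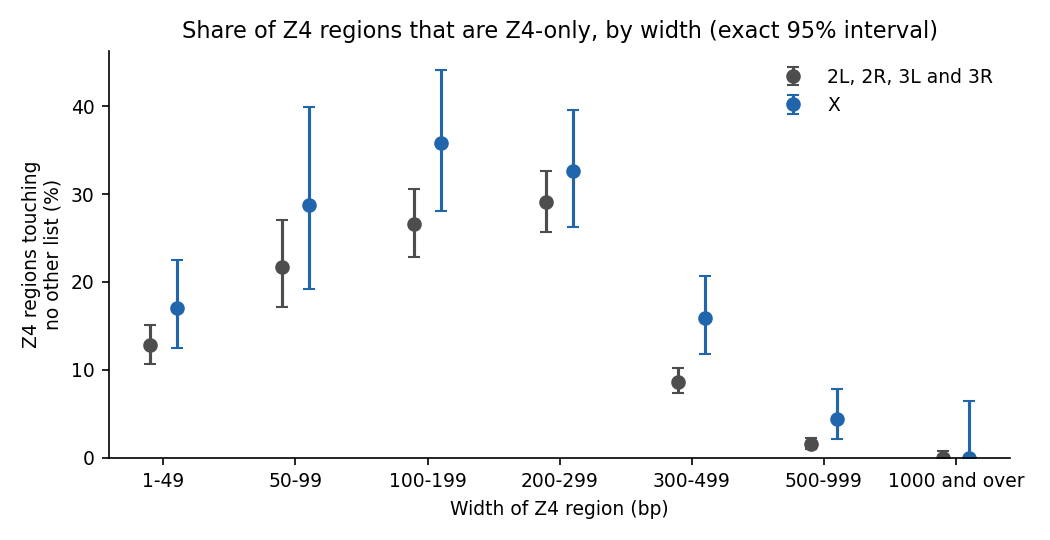
Percentage of Z4 regions that are Z4-only in 7 classes of width, on X (blue) and on the 4 large autosomal arms (dark grey), with exact 95% intervals. Both curves are highest between 100 and 299 bp, and X lies above the autosomes in each class below 1000 bp.

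Members on X also lay farther from ROW. The median gap to ROW was 2511.5 bp on X and 1128 bp on the autosomal arms, while the median gap to WOC was 4255.5 and 3897 bp. ROW was within 200 bp of 18.2% of members on X (13.5 to 23.7%) and of 30.7% on the autosomes (27.3 to 34.4%). WOC was within 1 kb of 17.8% and 18.2%. The members themselves had median widths of 202.5 bp on X and 221.5 bp on 2L and 3R, 222 bp on 2R and 182 bp on 3L.

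Chromosome 4, the small autosome rich in heterochromatin, held 7 members among 66 Z4 regions (10.6%, 4.37 to 20.6%). They measured 7, 1, 266, 4, 119, 186 and 157 bp in order of position. The first 3 lay within 373 bp of another list, and the others were 3464 to 31899 bp from one. The heterochromatic assemblies of the arms (2RHet, 3LHet, 3RHet and XHet) held 10 members among 58 Z4 regions, and the unplaced U and Uextra held 11 among 50, with intervals of 8.59 to 29.4% and 11.5 to 36.0%. The median width of these 21 members was 37 bp, and 13 of them (61.9%) were under 50 bp. The 87 shared Z4 regions on the same assemblies had a median of 310 bp, and 10.3% were under 50 bp. These assemblies hold repeated sequence, and the treatment of reads with several matches is not given in these sources. A single member of 206 bp lay on the mitochondrial genome, from 5954 to 6159, where the Z4 list had 4 regions in all and the nearest other list was Dsk2 at 1255 bp.

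Regions found in 1 list alone were compared across the 5 proteins. Z4-only regions were the widest of these sets by median: ROW-only regions (3437) had a median of 98 bp, HP1c-only regions (777) of 110 bp, WOC-only regions (772) of 40 bp and Dsk2-only regions (253) of 28 bp. The whole Z4 list was also the widest, with a median of 352 bp. The medians of the whole lists were 245 bp for ROW, 216 bp for Dsk2, 205 bp for WOC and 121 bp for HP1c. Under 50 bp were 41.6% of ROW-only, 26.3% of HP1c-only and 57.5% of WOC-only regions, against 18.3% of Z4-only regions. The nearest region of any other list was a median of 986.5 bp from Z4-only regions, 768 bp from WOC-only, 510 bp from ROW-only, 240 bp from HP1c-only and 147 bp from Dsk2-only regions. Another list within 1 kb was present for 50.1% of Z4-only regions (46.9 to 53.3%), 55.8% of WOC-only (52.2 to 59.4%), 66.3% of ROW-only (64.7 to 67.9%), 73.5% of Dsk2-only (67.6 to 78.8%) and 73.6% of HP1c-only regions (70.4 to 76.7%). The order depended on the distance. Within 200 bp the share was 57.7% for Dsk2-only, 45.3% for HP1c-only, 30.7% for Z4-only, 29.0% for ROW-only and 25.4% for WOC-only regions. The share beyond 5 kb was 18.0% for WOC-only, 17.4% for Dsk2-only, 15.2% for Z4-only, 13.5% for HP1c-only and 7.62% for ROW-only regions. Each set was measured against a different quartet of lists, so these gaps also depend on the lengths of those lists.

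A higher share on X was seen for ROW-only regions as well. They were 48.3% of ROW regions on X (45.7 to 51.0%) and 36.3% on the autosomal arms (35.2 to 37.4%). For WOC the shares were 14.5% on X (12.5 to 16.7%) and 13.1% (12.1 to 14.1%), for HP1c 30.6% (26.5 to 35.0%) and 28.65% (26.8 to 30.6%), and for Dsk2 6.91% (5.34 to 8.77%) and 4.85% (4.18 to 5.59%). The intervals of X and the autosomes were separate for Z4 and ROW and overlapped for the other 3. The Z4 and ROW values are not independent, because an overlap between the 2 lists that is missing on X is missing from both.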

How the data were processed

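The deposited files hold, for each immunoprecipitation, no measured score but other values: the chromosome, start and end of each called region. The authors called regions against input, per the series' design text. The tools named in the submitters' processing notes are Bowtie 0.12.5, CASAVA 1.8 and FastQC 0.9.3, and the build is dm3. The peak caller and its threshold are not given in these sources. Positions are printed as deposited and both ends counted as part of a region.

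Regions were merged, measured and shifted with Python 3.11.15, NumPy 2.4.6, SciPy 1.17.1 and pandas 2.3.3, and drawn with matplotlib 3.10.9. Merging and gaps were tested on simulated data. Arm ends were the outermost positions of any list. Named regions were the 5 widest, the 5 farthest from another list, the longest runs, the densest window and up to 3 on each side of the limit. Members, comparisons and this rule were chosen with earlier results of these data known, and the comparisons between X and the autosomes after the values were seen. Genes were not assigned and no sequence is shown, because no genome or annotation of dm3 was used here.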

Additional observations from a re-analysis of the deposited data

How the results depend on the processing

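Depth limits every statement on absence, and width stood in for strength. Of 149 values from 11 alternatives, 81 stayed within the interval of the reported value (for the number of regions, within 1.5 times) and 68 moved. Some values that stayed were fixed by the setting. Examples are the median width with every region at 200 bp, and the X and autosomal Z4-only shares with the large arms alone. The X and autosomal shares were added after seeing the data. No paired analysis was possible because each protein had 1 library. The end-exclusive intervals, the 5 large arms alone and the lists without Dsk2 or HP1c moved no value.

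Joining regions up to 100 bp apart gave median gaps of 2170 bp to ROW and 1712 bp to any list, 37.6% with another list within 1 kb, 15.5% in runs and 10.1% Z4-only on the autosomal arms. Joining up to 500 bp left 550 regions, a median width of 218 bp and gaps of 3243 bp to ROW, 5117 bp to WOC, 6434 bp to Dsk2, 15898 bp to HP1c, 2603 bp to any list and 3149 bp to Z4. It gave 15.5% within 1 kb, 10.2% in runs, 28.7% of members on X, and Z4-only shares of 16.5% on X and 8.11% on the autosomes. Joining removes members with another list within the joining distance, so longer gaps and lower shares within 1 kb follow in part from these settings. With regions of at least 50 bp the median width was 254 bp and the gaps were 2803, 5372, 6799.5, 21544, 2063.5 and 3083 bp in the same order. The shares were 31.5% within 1 kb, 24.4% in runs, and 27.4% on X and 14.3% on the autosomes.

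With the 50% widest regions of the other lists, 2271 regions were Z4-only, with a median width of 282 bp. Gaps were 5623.5 bp to ROW, 8558 bp to WOC, 10447 bp to Dsk2, 32206 bp to HP1c and 3345 bp to any list. Shares were 22.4% within 1 kb, 40.5% in runs, and 41.9% on X and 27.6% on the autosomes. With every region at 200 bp, 2368 were Z4-only, with gaps of 337, 1907, 2528.5, 5803.5, 229 and 1225 bp to ROW, WOC, Dsk2, HP1c, any list and Z4. Shares were 77.5% within 1 kb, 51.9% in runs, 18.4% of members on X, and 35.6% on X and 31.1% on the autosomes.

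Without ROW, 3668 regions were Z4-only, with a median width of 236 bp. Gaps were 2408 bp to WOC, 3053 bp to Dsk2, 6646 bp to HP1c, 1863.5 bp to any list and 1176.5 bp to Z4. Shares were 37.6% within 1 kb, 62.3% in runs, 16.8% of members on X, and 50.2% on X and 49.4% on the autosomes. The values of 50.2% and 49.4% restate the shares with none of WOC, Dsk2 and HP1c given above. Without WOC the median width was 217 bp, 23.0% were in runs, and 24.1% were Z4-only on X and 13.1% on the autosomes. The Z4-only share was higher on X than on the autosomes in every alternative run, by less than 1 percentage point without ROW. A gap to a list that had been left out, and chromosome 4 with the large arms alone, have no value.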
